A study of Mus musculus with 8 samples.

Results

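This comparison sets lungs in which only the recipient carried the diphtheria toxin receptor against lungs in which only the transplanted marrow carried it. It holds 4 of the 8 mice of the study, 2 in each group, chosen by their group labels. WL mice were LysM-DTR recipients of wild-type marrow, and LW mice were wild-type recipients of LysM-DTR marrow, named by donor and then by recipient. All were male chimeras aged 22 weeks whose lungs were taken 72 hours after diphtheria toxin. The other 4 mice, used here as points of reference, were 2 LL mice (LysM-DTR on both sides) and 2 WW mice (wild type on both sides). Every group received the toxin, and no lung without toxin was analysed here. Each lung was read on 1 one-colour Agilent array. The labels do not say how the recipients were conditioned or how much recipient blood remained.

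In LysM-DTR mice the toxin receptor is made under the lysozyme M promoter. Wild-type mouse cells bind diphtheria toxin poorly, so the toxin enters mainly cells that make the introduced receptor, where it inactivates elongation factor 2 by modifying its diphthamide residue and stops protein synthesis. Lysozyme M is made by macrophages, monocytes and neutrophils, which descend from marrow, and in the mouse lung also by alveolar type 2 cells, the surfactant-secreting epithelial cells that belong to the recipient. After loss of alveolar epithelium, surviving type 2 cells are known to divide and to pass through a keratin-8-high transitional state on the way to alveolar type 1 cells.

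In 16 of 31 tested mitosis genes both WL mice were at least 2-fold above the higher LW mouse, against 0.255% of all genes, so the promoters of the 3 mitosis genes with the smallest p are shown. Each runs from 250 bases before to 50 bases after the RefSeq start on GRCm38.p6, 5′ to 3′ on the gene's strand. Capitals mark TTTGAA or TTCGAA, the core of the cell cycle homology region element, and CCAAT, the core of the element bound by NF-Y, read on both strands. Cdc20, the activator of the anaphase-promoting complex, lies at chr4:118437294-118437593 on the minus strand. Nuf2, a kinetochore protein, lies at chr1:169531415-169531714 on the minus strand. Prc1, which bundles microtubules at the central spindle, lies at chr7:80294201-80294500 on the plus strand.
Cdc20: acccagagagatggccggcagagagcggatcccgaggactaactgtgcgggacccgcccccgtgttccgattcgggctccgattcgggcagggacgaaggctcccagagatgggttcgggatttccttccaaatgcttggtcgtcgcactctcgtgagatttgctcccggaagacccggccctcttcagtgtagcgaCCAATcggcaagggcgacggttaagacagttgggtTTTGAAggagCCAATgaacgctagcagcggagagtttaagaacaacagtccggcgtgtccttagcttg
Nuf2: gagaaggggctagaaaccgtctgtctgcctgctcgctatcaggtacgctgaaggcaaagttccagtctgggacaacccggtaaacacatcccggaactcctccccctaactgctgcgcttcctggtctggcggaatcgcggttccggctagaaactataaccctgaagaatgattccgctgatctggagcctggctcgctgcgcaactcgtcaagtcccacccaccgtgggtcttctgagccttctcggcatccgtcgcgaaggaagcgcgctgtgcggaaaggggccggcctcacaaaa
Prc1: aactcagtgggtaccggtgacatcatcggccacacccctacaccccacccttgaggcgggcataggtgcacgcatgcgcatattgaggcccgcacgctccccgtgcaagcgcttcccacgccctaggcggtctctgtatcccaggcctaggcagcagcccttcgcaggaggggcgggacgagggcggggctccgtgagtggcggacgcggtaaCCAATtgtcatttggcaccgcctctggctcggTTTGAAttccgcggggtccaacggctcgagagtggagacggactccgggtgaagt
The Cdc20 window held 1 TTTGAA and 2 CCAAT, the Prc1 window 1 of each, and the Nuf2 window none of them. Of the 29 mitosis genes with a promoter in the table, 24 (82.8%) held TTTGAA or TTCGAA, against 19.4% of all 27025 promoters. CCAAT was in 23 of them (79.3%, against 37.9%), and both were in 21 (72.4%, against 7.7%). Among 23 DNA replication promoters 6 (26.1%) held the first element and 16 (69.6%) held CCAAT. A match of letters is a description and shows no binding.

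The 2 WL mice were unlike each other. Across the 23103 genes tested, levels are log2 intensities after each array's 75th percentile was subtracted, so that 0 is that percentile. The median absolute difference between the WL mice was 0.43 on this scale, against 0.11 between the LW mice. WL replicate 2 stood at least 2-fold above replicate 1 in 1772 genes and at least 2-fold below it in 1979, whereas for the LW mice these counts were 142 and 167. WL replicate 1 had a Pearson r of 0.994 across genes with the LW mean and 0.959 with the LL mean. WL replicate 2 had 0.955 and 0.973, and genes are not independent replicates. Both WL values are therefore given throughout. WL replicate 1 thus lay nearer to the LW mice than to the LL mice, and whether a WL label is wrong cannot be told from these values, since neither the transgene nor the share of donor cells was measured here. Every WL value and WL minus LW difference below takes both labels as given. LW replicate 2 stood apart in a list of 20 liver genes, added after the values were seen, with a median of 0.49 against -2.31 on LW replicate 1 and -3.14 to -1.69 on the other 6 arrays. The 75th percentile was 269.7 and 324.4 intensity units on the WL arrays and 254.8 and 252.1 on the LW arrays, and 71.1, 71.3, 66.3 and 66.9% of their spots were well above background. All arrays lay on 1 slide read in 1 scan. The WL arrays held places 3 and 4 of column 1 and the LW arrays places 1 and 2 of column 2, so genotype and slide position cannot be told apart.

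No single gene passed the test between WL and LW. limma, fitted to all 8 arrays, called 0 of 23103 genes (0%), with a smallest adjusted p of 0.225, and 1906 genes (8.25%) had an unadjusted p under 0.05. With 2 mice against 2, an exact permutation test of a single value cannot go below 0.333. The count of called genes was also 0 without WL replicate 2 and without either LW mouse. Without WL replicate 1 it was 9926, when the group is the single mouse WL replicate 2 and is assumed to vary like the other pairs. The count of unadjusted p under 0.05 was then 12201, against 1299 without WL replicate 2, 893 without LW replicate 1 and 641 without LW replicate 2. Both WL mice lay above both LW mice in 4707 genes (20.4%) and below both in 5768 (25.0%). What follows gives levels and differences, none of which passed the adjusted threshold.

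Steps of at least 2-fold from the LW mice were far more frequent in WL replicate 2 than in WL replicate 1. WL replicate 1 was at least 2-fold above the higher LW mouse in 131 genes (0.567%) and at least 2-fold below the lower one in 45 (0.195%). For WL replicate 2 these counts were 1810 (7.83%) and 1807 (7.82%). Both WL mice were at least 2-fold above in 59 genes (0.255%), which are part of the 131. Both were at least 2-fold below in 19 (0.0822%), which are part of the 45. Of the 59, 51 carried a gene name that is not a predicted gene or clone, and 18 belonged to the mitosis and DNA replication lists. In all 59 the WW mean lay below both WL mice. Of the 19, 11 carried such a name, and 4 were at least 2-fold higher on LW replicate 2 than on LW replicate 1. The WW mean lay above both WL mice in 9 of the 19. These counts compare WW with WL alone and do not place WW near LW. The WL mice lay at least 2-fold on opposite sides of the LW mice in 8 genes, 5 with replicate 1 above and 3 with replicate 2 above.

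**Figure D1:**
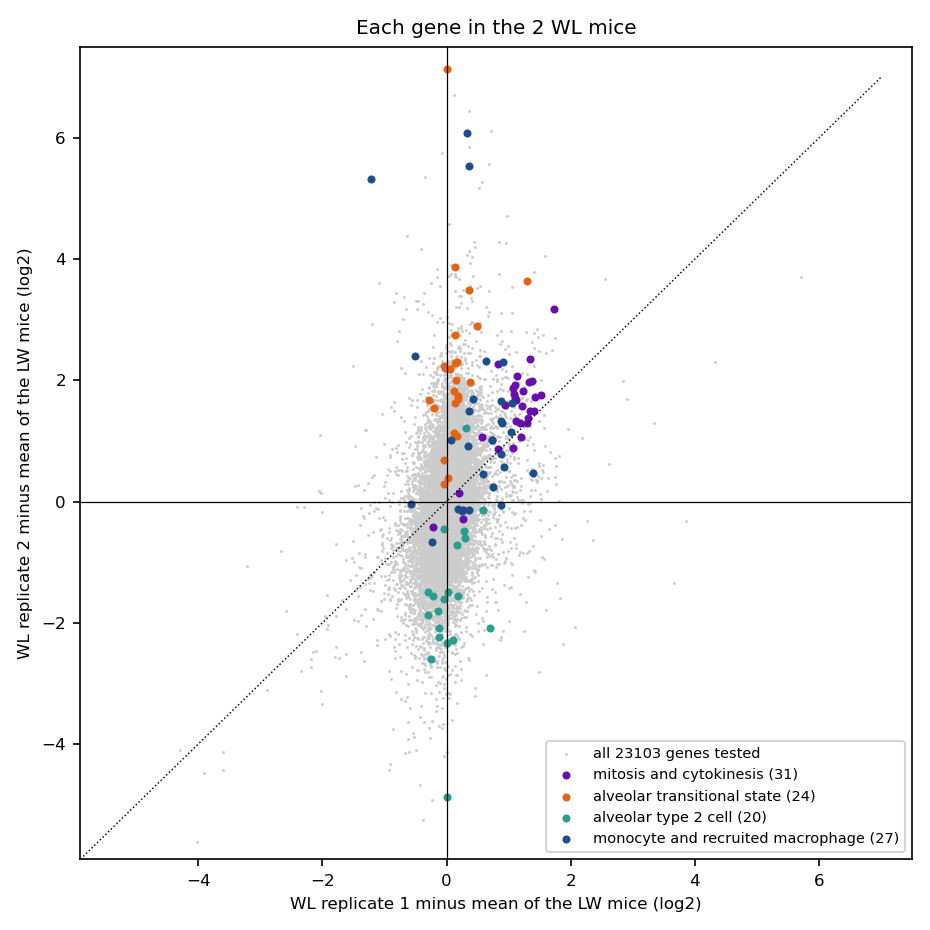
Difference of each of 23103 genes from the LW mean in WL replicate 1 (x axis, log2) and WL replicate 2 (y axis, log2), with 4 gene lists coloured and equal values on the dotted line. The cloud is far taller than it is wide; the mitosis genes lie to the upper right, and the transitional state genes, mostly above 0 on the y axis, lie near 0 on the x axis.

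Mitosis genes stood above LW in both WL mice. Of 31 tested members of the mitosis and cytokinesis list, 28 had both WL mice above both LW mice and none had both below, against the background of 20.4% and 25.0% of all genes. In 16 members both WL mice were at least 2-fold above the higher LW mouse, against 0.255% of all genes. The median difference from the LW mean was 1.13 in WL replicate 1 and 1.58 in WL replicate 2, where all genes had -0.01 and -0.05. The LL mice stood at 1.49 and 1.40 and the WW mice at -0.02 and -0.02 on the same scale. These 6 values place both WL mice near LL and both LW mice near WW. No member was called.

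Cdc20, whose promoter is printed above, had levels of 1.79 and 2.01 in the WL mice and 0.22 and 0.30 in the LW mice. Its WL minus LW difference was 1.64 (SE 0.139, limma adjusted p = 0.225), a 3.12-fold higher mean. The WL mice did not overlap the LW mice, and the LL levels of 2.02 and 2.08 lay beside the WL ones. Its probe lies on mm9 chromosome 4 from 118105534 to 118105593 on the minus strand, and the array annotation used here names no exon. Nuf2 stood at -1.34 and -1.27 in WL and at -2.55 and -2.75 in LW, a difference of 1.35 (SE 0.144). Prc1 stood at 1.20 and 1.28 in WL and at -0.10 and -0.31 in LW, although 1 of its 4 tested probes differed in the other direction. Cenpf, a kinetochore-associated protein of dividing cells, stood at -0.21 and -0.10 in WL and at -1.36 and -1.44 in LW. The proliferation antigen Mki67 stood at 2.44 and 2.43 in WL and at 1.34 and 0.95 in LW, a difference of 1.29 (SE 0.166, limma adjusted p = 0.225). In Nuf2, Prc1, Cenpf and Mki67 the gap between groups was many times the gap between the WL mice. Nuf2, Prc1 and Cenpf were named for a small p, a rule that favours close mice within a group. The LW mice of Mki67 lay further apart than its WL mice.

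Other mitosis genes were further up in WL replicate 2 than in replicate 1. Cdk1, the kinase that drives entry into mitosis, stood at -2.22 and -0.77 in WL and at -3.84 and -4.04 in LW, a difference of 2.45 (SE 0.434, limma adjusted p = 0.304). The cytokinesis scaffold Anln stood at 0.07 and 1.52 in WL and at -0.69 and -0.82 in LW. The 3 members that overlapped were Cep55, Kif23 and Ndc80, and they are named because they are the exceptions. Cep55 had -1.88 and -2.09 in WL and -0.99 and -2.33 in LW. Ttk and Kif11, the other two listed genes, were not tested because they were not well above background on all 4 arrays. Both were above it on both WL arrays, Ttk on neither LW array and Kif11 on 1.

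DNA replication genes shared the direction with a smaller step in WL replicate 1. Of 27 tested members 25 had both WL mice above both LW mice and none had both below, against 20.4% and 25.0% of all genes. In 2 members both were at least 2-fold above, against 0.255% of all genes. The median difference from the LW mean was 0.49 in WL replicate 1 and 1.22 in WL replicate 2. Uhrf1, which maintains DNA methylation at the replication fork, stood at 0.86 and 1.43 in WL and at -0.50 and -0.62 in LW, a difference of 1.71 (SE 0.214, limma adjusted p = 0.225). Rrm2, a subunit of the reductase that makes deoxynucleotides, stood at 1.29 and 1.79 in WL and at 0.28 and -0.13 in LW. Mcm5, part of the replicative helicase, stood at 0.79 and 1.39 in WL and at -0.11 in both LW mice. In all of these the WL mice lay above the LW mice without overlap.

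**Figure D2:**
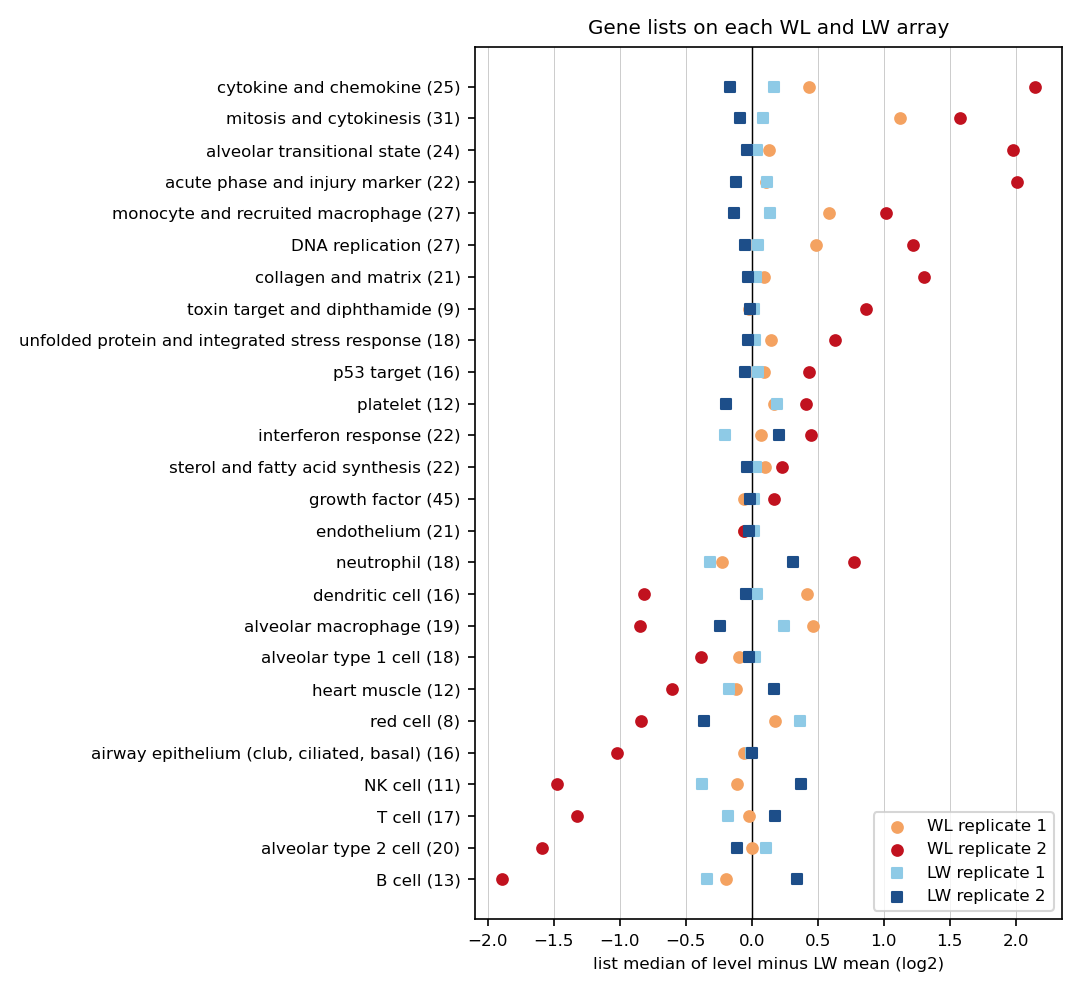
Median over each of 26 gene lists (tested members in brackets) of the level minus the mean of the LW mice, on the log2 scale, for each WL mouse (circles) and LW mouse (squares). WL replicate 2 is far from 0 in most lists, and WL replicate 1 stands farthest to the right in mitosis (1.13), monocyte and recruited macrophage (0.58) and DNA replication genes (0.49).

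Genes were ranked by the gap between the nearest WL and LW mice, with predicted genes, clones, accessions and receptor segments left out. The 8 ranked genes higher in WL with the widest gap were led by the B cell attracting chemokine Cxcl13. Its levels were 0.90 and 2.02 in WL and -1.49 and -1.82 in LW, a difference of 3.11 (SE 0.843, limma adjusted p = 0.466). The WW mice, at -0.01 and 0.20, lay between the WL and LW mice, and the LL mice stood at 0.55 and 3.28. Its probe lies on mm9 chromosome 5 from 96389861 to 96389920 on the plus strand. Ubd, a ubiquitin-like protein induced by cytokines, was the only one of the 8 with a higher level in WL replicate 1, at -0.38 and -1.23 in WL and -3.03 and -3.42 in LW. Rgs16, a regulator of G protein signalling, stood at -0.59 and 1.88 in WL and at -2.08 and -2.26 in LW. The other 5 were Cdc20, Cdk1, Uhrf1, the mitotic kinase Pbk and the phosphatase Cdkn3. Pbk had -1.57 and -0.62 in WL and -3.35 and -3.29 in LW, and Cdkn3 had 0.10 and 0.95 in WL and -1.31 and -1.68 in LW.

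The 8 genes lower in WL with the widest gap in the same ranking were of another kind. Mup19, Mup20 and Mup4 are major urinary protein genes, a liver family of near-identical copies whose probes may not separate them. Mup19 stood at -2.78 and -4.38 in WL, at -1.20 in LW replicate 1 and at 3.69 in LW replicate 2. Afm, which encodes the plasma protein afamin, stood at -3.07 and -3.58 in WL and at -1.90 and -1.49 in LW. Over the liver list 19 of 20 genes were above background on LW replicate 2, 14 on LW replicate 1 and 13 on each WL array. Alb, the albumin gene, had 3.84 on LW replicate 2 and -1.92 on LW replicate 1. The part of this liver signal in the lower genes was not tested. Ucp1, the uncoupling protein of brown fat, stood at -3.80 and -3.02 in WL and at -1.54 and -0.89 in LW. Slx stood at -3.59 and -3.93 in WL and at -1.48 and -1.41 in LW, where the WW mice, at -3.56 and -3.78, lay with WL. Zan, which encodes a sperm membrane protein, stood at -3.78 and -4.20 in WL and at -1.56 and -1.64 in LW, but its second probe was 0.12 higher in WL. Wfdc6b completed the set, at -4.45 and -5.21 in WL and -3.12 and -3.18 in LW.

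**Figure D3:**
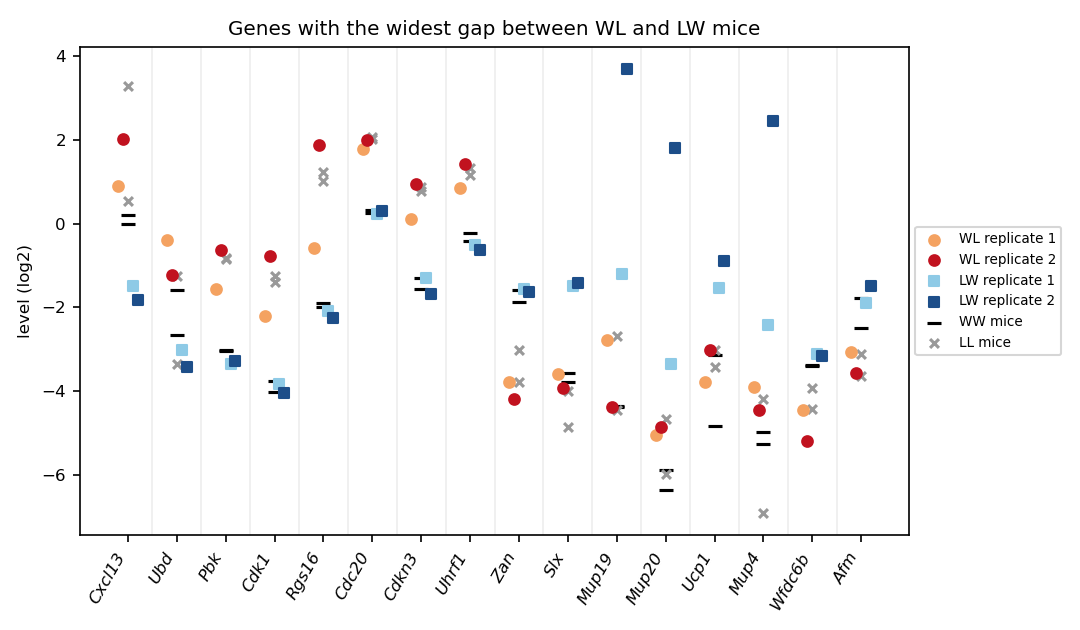
Level (log2 intensity minus the array's 75th percentile) of the 8 higher and 8 lower genes with the widest gap between WL and LW, 1 symbol per mouse, with the WW mice as bars and the LL mice as crosses. Predicted genes, clones, accessions and receptor segments were left out of the ranking. The WL and LW symbols do not overlap in any of the 16, which is how they were chosen, and the 3 Mup genes stand highest on LW replicate 2 alone.

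The list median of monocyte and recruited macrophage genes stood above LW in both WL mice, while both LL mice lay far below. Bulk lung RNA cannot tell fewer cells of a type from less RNA per cell. Of 27 members 17 had both WL mice above both LW mice and 1, the integrin Itgam, had both below. The shares among all genes were 20.4% and 25.0%. In the other 9 members the groups overlapped. The median difference from the LW mean was 0.58 in WL replicate 1 and 1.02 in WL replicate 2, against -1.95 and -1.32 in the LL mice. C1qb, a subunit of complement C1q that tissue macrophages make, stood at 1.41 and 1.97 in WL and at 0.51 and 0.19 in LW, a difference of 1.34 (SE 0.235, limma adjusted p = 0.304). C1qa stood at 1.77 and 2.22 in WL, 1.10 and 0.67 in LW, and -3.70 and -3.97 in LL. C1qc had a WL minus LW difference of 1.09 (SE 0.271), with levels of 3.14 and 3.54 in WL and 2.38 and 2.13 in LW. The macrophage membrane protein Ms4a7 stood at 1.86 and 1.76 in WL and at 1.24 and 0.72 in LW. Cd68, a lysosomal protein of phagocytes, stood at 2.97 and 3.25 in WL and at 2.62 and 1.85 in LW. The WL mice lay above the LW mice in all of these, and the WW mice stood close to LW, at 0.99 and 0.79 for C1qa. The growth factor receptor Csf1r overlapped, at 4.77 and 4.47 in WL and 4.73 and 4.46 in LW.

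Alveolar macrophage genes did not share this pattern. Of 19 tested members none had both WL mice above both LW mice, against 20.4% of all genes. In 1, the fatty acid transporter Cd36, both lay below, against 25.0% of all genes. Cd36 stood at 3.11 and 3.22 in WL and 3.40 and 3.26 in LW. The median difference was 0.46 in WL replicate 1 and -0.85 in WL replicate 2, and the LL mice stood at -1.70 and -1.32. The scavenger receptor Marco had 2.65 and -1.49 in WL and -0.57 and 1.72 in LW, so that both LW mice lay between the WL mice. The mannose receptor Mrc1 stood at 1.54 and 2.33 in WL and at 1.56 and 0.92 in LW. Siglecf, a lectin that marks these cells, stood at -0.20 and -2.90 in WL and at -1.74 and -1.02 in LW. Over the list the median absolute difference between the mice of a pair was 1.44 in WL and 0.65 in LW.

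The genes at the centre of the model differed mainly in 1 WL mouse. Lyz2, which encodes lysozyme M, stood at 8.70 and 7.36 in WL and at 8.99 and 8.84 in LW, a difference of -0.89 (SE 0.402, limma adjusted p = 0.466). Both WL mice were below both LW mice, and the LL mice, at 4.67 and 4.94, were lower still. Its probe lies on mm9 chromosome 10 from 116714450 to 116714509 on the minus strand. Lyz1, a close paralogue whose transcripts may cross-hybridise, stood at 7.03 and 5.46 in WL and at 7.42 and 7.25 in LW. The toxin receptor transgene itself was not analysed here. Mouse Hbegf, the endogenous counterpart of the receptor, stood at 2.39 and 4.09 in WL and at 2.28 and 2.25 in LW. Eef2, the elongation factor that the toxin inactivates, stood at 6.44 and 6.80 in WL and at 6.53 and 6.57 in LW. Of the 9 genes of the toxin target and diphthamide list, 4 had both WL mice above both LW mice and 1 had both below. The shares among all genes were 20.4% and 25.0%. The list medians were -0.02 in WL replicate 1 and 0.87 in WL replicate 2. Dph5, a diphthamide synthesis enzyme, stood at 0.35 and 1.79 in WL and at 0.31 and 0.32 in LW.

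Surfactant and other type 2 cell genes stood lower in WL replicate 2. Of 20 members 8 had both WL mice below both LW mice and 1 had both above, against 25.0% and 20.4% of all genes. No member was at least 2-fold below in WL replicate 1, and 14 were in WL replicate 2. The shares among all genes were 0.195% and 7.82%. The median difference was 0.00 in WL replicate 1 after rounding and -1.59 in WL replicate 2, with the LL mice at -2.18 and -1.88. Surfactant protein C, Sftpc, stood at 9.51 and 7.55 in WL, at 9.70 and 9.57 in LW, and at 7.41 and 7.83 in LL. Its WL minus LW difference was -1.10 (SE 0.577, limma adjusted p = 0.466), and it was -0.12 without WL replicate 2. Abca3, the lipid transporter of lamellar bodies, stood at 5.63 and 4.43 in WL and at 6.03 and 5.83 in LW. Sftpb had 8.07 and 7.65 in WL and 8.11 and 8.12 in LW. Ctsh, a protease that processes surfactant proteins, was the member with both WL mice above, at 5.95 and 6.85 in WL and 5.80 and 5.47 in LW. For Ctsh the probes disagreed in direction.

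Type 1 cell genes had a smaller median step in WL replicate 2 than type 2 cell genes. Of 18 members 10 had both WL mice below both LW mice and 3 had both above, against 25.0% and 20.4% of all genes. The medians were -0.10 and -0.38 in the WL mice. WL replicate 2 was at least 2-fold below in 5 members, against 7.82% of all genes. Among these, Rtkn2 stood at 3.68 and 0.38 in WL and at 3.80 and 3.88 in LW. Akap5 stood at 4.09 and 2.89 in WL and at 4.50 and 4.41 in LW, and the homeodomain protein Hopx stood at 5.64 and 4.70 in WL and at 5.89 and 5.90 in LW. In the LL mice both genes stood above LW, Hopx at 6.58 and 6.52, which is the other side from WL. The defining marker Ager had 8.01 and 7.90 in WL and 8.02 in both LW mice.

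Transitional state genes stood higher in WL replicate 2 and near LW in WL replicate 1. Of 24 tested members 14 had both WL mice above both LW mice and none had both below, against 20.4% and 25.0% of all genes. WL replicate 1 was at least 2-fold above in 1 member and WL replicate 2 in 20, against 0.567% and 7.83% of all genes. The medians were 0.13 and 1.98, with the LL mice at 1.54 and 1.68. Krt8, the keratin that names the state, stood at 4.95 and 7.11 in WL and at 4.81 and 4.83 in LW. Its difference was 1.21 (SE 0.615, limma adjusted p = 0.466), and in WL replicate 1 the step above the higher LW mouse was only 0.13. Krt19 had 3.76 and 5.89 in WL and 3.77 and 3.65 in LW, so WL replicate 1 lay between the LW mice. Areg, an EGF receptor ligand, was the member that was at least 2-fold above in both WL mice, at -0.70 and 1.64 in WL and -2.11 and -1.88 in LW. The galectin Lgals3 stood at 5.35 and 6.94 in WL and at 5.21 and 4.74 in LW. Tubb6, a beta tubulin, stood at 2.97 and 5.38 in WL and at 2.41 and 2.55 in LW.

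Airway genes were mixed. Of 16 members 4 had both WL mice above both LW mice and 6 had both below, against 20.4% and 25.0% of all genes. The medians were -0.06 and -1.02 in the WL mice. The basal cell keratin Krt5 stood at -1.05 and 0.59 in WL and at -1.93 and -1.51 in LW. Krt15 stood at -0.04 and 1.49 in WL and at -2.38 and -0.24 in LW. The club cell secretory protein Scgb1a1 stood at 9.35 and 8.99 in WL and at 9.50 in both LW mice.

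Genes were also ranked by the difference between the WL mice, again without predicted genes, clones, accessions and receptor segments. The 6 with the largest excess in WL replicate 2 over WL replicate 1 were Timp1, Ccl2, Cxcl1, Arg1, Sprr1a and Adamts4. Timp1, an inhibitor of matrix metalloproteinases, stood at 1.87 in WL replicate 1 and 7.94 in WL replicate 2, with LW at 1.68 and 1.32 and LL at 4.72 and 5.90. The monocyte chemoattractant Ccl2 had -0.13 and 5.62 in WL and -0.17 and -0.76 in LW. The neutrophil chemoattractant Cxcl1 had -1.70 and 4.12 in WL and -0.92 and -2.33 in LW, so WL replicate 1 lay between the LW mice. The arginine-degrading enzyme Arg1 had -4.83 and 1.72 in WL and -4.22 and -2.99 in LW, with WL replicate 1 below both. Without WL replicate 2 its difference was -1.23. Sprr1a, a cornified envelope protein, had -2.83 and 4.30 in WL, and the aggrecanase Adamts4 had -1.66 and 4.92. In all 6 genes WL replicate 2 lay above both LL mice.

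On the low side 5 of the 6 genes were near LW in WL replicate 1 and near LL in WL replicate 2. Hc, the gene of complement C5, stood at 3.28 and -1.60 in WL, at 3.52 and 3.03 in LW, and at -2.32 and -2.13 in LL. Acoxl had 2.73 and -2.15 in WL and 3.26 and 2.96 in LW. Lgi3 had 1.71 and -2.44 in WL and 1.85 and 1.68 in LW. Tinag and Nrn1 followed the same order, with -0.23 and -4.93 and with -0.66 and -4.90 in the WL mice. Creg2 was the exception, at 0.08 in WL replicate 1 alone, against -4.10 in WL replicate 2 and -3.85 and -3.69 in LW.

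**Figure D4:**
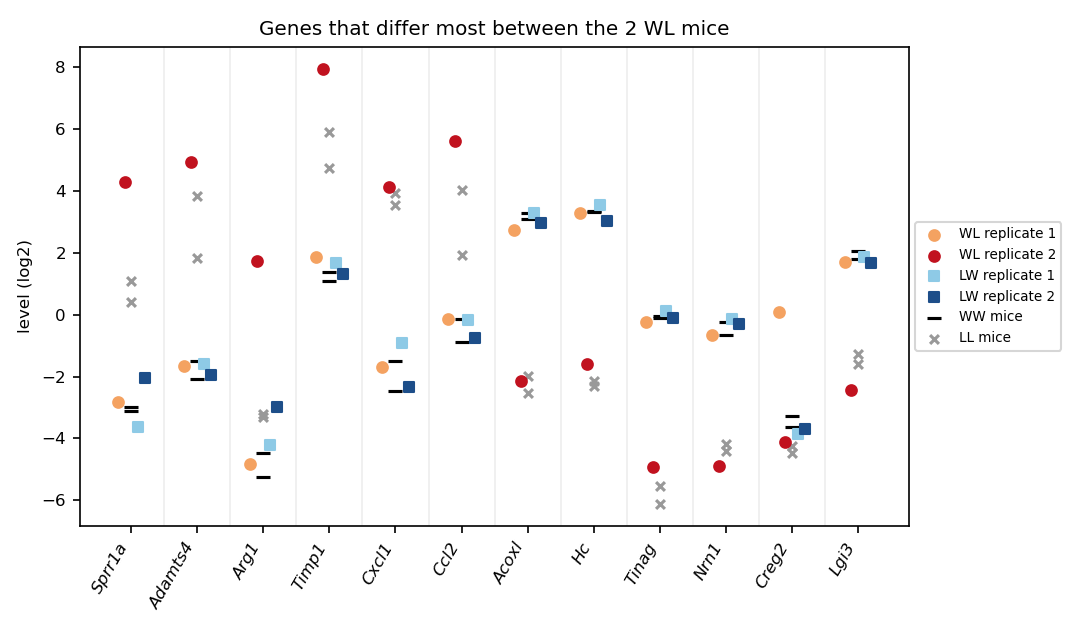
Level (log2 intensity minus the array's 75th percentile) of the 6 genes with the largest excess and the 6 with the largest deficit in WL replicate 2 against WL replicate 1, 1 symbol per mouse, WW as bars and LL as crosses. Predicted genes, clones, accessions and receptor segments were left out of the ranking. WL replicate 1 lies near the LW and WW mice in all but Creg2, where it stands alone at 0.08, and WL replicate 2 lies nearer to LL in most of the 12.

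Cytokine and chemokine genes had the highest list median, and it came with unequal mice. Of 25 tested members 16 had both WL mice above both LW mice and none had both below, against 20.4% and 25.0% of all genes. The medians were 0.44 in WL replicate 1 and 2.15 in WL replicate 2. Ccl9, a myeloid chemokine, stood at 2.42 and 3.51 in WL and at 1.84 and 1.09 in LW. Cxcl10, an interferon-induced chemokine, stood at 1.15 and 3.94 in WL and at 0.12 and 0.82 in LW. Cxcl9, also interferon-induced, was at least 2-fold above LW in both, at 0.28 and -0.95 in WL and -3.31 and -1.95 in LW, and is named here after its values were seen. Ccl20 stood at -0.42 and 0.77 in WL and at -0.74 and -2.01 in LW.

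Acute phase and injury genes were near LW in WL replicate 1, with medians of 0.11 and 2.01 in the WL mice. Of 22 tested members 9 had both WL mice above both LW mice and 1, the fibrinogen gene Fga, had both below. The shares among all genes were 20.4% and 25.0%. Socs3, a feedback inhibitor of cytokine signalling, stood at 2.59 and 5.17 in WL and at 1.98 and 1.92 in LW. Serpina3n, a protease inhibitor, stood at 0.93 and 4.11 in WL and at 0.56 and 0.55 in LW. The serum amyloid gene Saa3 had 1.83 and 6.52 in WL and 3.05 and 2.78 in LW, so the LW mice lay between the WL mice. Some members of this list are also made in liver, and the liver signal of LW replicate 2 applies to them: the fibrinogen gene Fgg stood at 0.42 there and at -3.67 on LW replicate 1.

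Matrix genes stood higher in WL replicate 2, with medians of 0.09 and 1.31 in the WL mice. Of 21 members 11 had both WL mice above both LW mice and 3 had both below, against 20.4% and 25.0% of all genes. Fn1, which encodes fibronectin, stood at 5.32 and 6.63 in WL and at 4.81 and 4.74 in LW. The collagen genes Col3a1 and Col1a1 had both WL mice above as well, Col3a1 at 4.04 and 4.81 in WL and 3.52 and 3.43 in LW. Pdgfrb, a pericyte and fibroblast receptor, lay on the other side, at 2.52 and 1.94 in WL and 3.01 and 3.09 in LW.

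Growth factors, which the study's title puts forward as candidates for repair, had no common direction. Of 45 tested genes 12 had both WL mice above both LW mice and 12 had both below, against 20.4% and 25.0% of all genes. The medians were -0.06 and 0.17 in the WL mice. Besides Areg, Igf1 stood higher in both WL mice, at 1.27 and 1.62 in WL and 0.89 and 0.19 in LW, with a probe of the other sign. Igf2 stood at -2.22 and -2.25 in WL and at -1.74 and -1.49 in LW. Bdnf stood at 0.28 and 0.55 in WL and at 0.90 and 0.94 in LW. Hgf, a mitogen of epithelium, had -1.73 and -2.07 in WL and -1.78 and -1.57 in LW, so the groups overlapped. Vegfc stood at 1.02 and 1.28 in WL and at 0.97 and 0.98 in LW, and Ptn, pleiotrophin, at -1.94 and -2.09 in WL and -1.42 and -1.78 in LW.

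Medians of the lymphocyte lists were lower in WL replicate 2. None of 41 tested members of the B, T and NK lists had both WL mice above both LW mice, against 20.4% of all genes. Both WL mice lay below both LW mice in 4 of 13 B cell, 4 of 17 T cell and 2 of 11 NK cell genes, shares near the 25.0% of all genes tested. The medians were -0.19 and -1.89 for B cells, -0.02 and -1.32 for T cells, and -0.11 and -1.48 for NK cells, in WL replicate 1 and 2. The LW mice also differed here, LW replicate 2 standing above LW replicate 1 by a median of 0.68, 0.35 and 0.75. The NK median difference of -0.61 was -1.14 without LW replicate 1 and -0.35 without LW replicate 2. Pax5, the factor that keeps B cell identity, stood at -2.32 and -2.67 in WL and at -1.60 and -1.72 in LW. Lef1, a T cell transcription factor, stood at 0.94 and -0.34 in WL and at 1.24 and 1.85 in LW. Gzma, a granzyme of NK and T cells, had 3.14 and 1.52 in WL and 3.03 and 3.48 in LW.

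Neutrophil genes had no common direction, with medians of -0.22 and 0.78 in the WL mice and a difference between the LW mice of 0.63. Of 18 tested members 3 had both WL mice above both LW mice and 3 had both below, against 20.4% and 25.0% of all genes. The list median of -0.02 changed sign with the scaling (-0.07 to 0.02 over the settings that keep all mice) and was 0.49 without LW replicate 2 and -0.15 without LW replicate 1. S100a8, an abundant granulocyte protein, overlapped at 3.42 and 5.30 in WL and 3.90 and 5.22 in LW. Replicate 2 was also the higher mouse for S100a8 in LL (3.76 and 5.94) and WW (4.42 and 5.66). Whether levels follow the replicate number was not tested. Ly6g, the neutrophil surface marker, stood at 1.96 and 3.07 in WL and at 1.82 and 1.88 in LW. In WW replicate 2 was the lower mouse for Ly6g, at 1.91 and 1.61. The stefin gene Stfa1 stood at -4.22 and -2.05 in WL and at -1.96 and -0.03 in LW, and Stfa3 at -4.33 and -3.94 in WL and -3.21 and -1.60 in LW. In LL both stefins stood above LW, Stfa1 at 0.87 and 2.48.

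Dendritic cell and platelet genes were mixed. Their counts stand against 20.4% of all genes with both WL mice above both LW mice and 25.0% with both below. Of 16 dendritic cell genes 2 had both WL mice above and 2 both below, with medians of 0.42 and -0.82. Batf3, a factor needed by cross-presenting dendritic cells, stood at -0.54 and 0.26 in WL and at -1.41 and -2.27 in LW. Of 12 platelet genes 5 had both WL mice above and 1 both below, with medians of 0.17 and 0.41. The platelet median difference of 0.31 was 0.51 without LW replicate 1 and 0.03 without LW replicate 2. Tubb1, the platelet tubulin, stood at -2.92 and -2.52 in WL and at -3.68 and -3.77 in LW, a difference of 1.01 (SE 0.178, limma adjusted p = 0.304). The WW mice, at -2.65 and -2.61, lay with WL, and over the platelet list they stood above the LW mean by medians of 0.36 and 1.07. Ppbp, a platelet chemokine, overlapped at 1.47 and 0.85 in WL and 1.54 and 0.97 in LW, whereas the LL mice stood at -4.53 and -5.81.

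Stress and metabolic genes are read against the background of 20.4% of all genes with both WL mice above both LW mice and 25.0% with both below. Of 18 unfolded protein and integrated stress response genes 10 had both WL mice above both LW mice and none had both below, with medians of 0.15 and 0.63. Sdf2l1, a chaperone cofactor of the endoplasmic reticulum, stood at 0.86 and 0.77 in WL and at 0.05 and -0.34 in LW, and was nearly equal in both WL mice. Of 16 p53 target genes 9 had both WL mice above both LW mice and 1 had both below, with medians of 0.09 and 0.43. Cdkn1a, the p21 cell cycle inhibitor, stood at 2.64 and 4.13 in WL and at 2.55 and 2.46 in LW. Gtse1, which is also a gene of the dividing cell, stood at -1.51 and -0.89 in WL and at -2.24 and -2.36 in LW. Of 22 sterol and fatty acid synthesis genes 9 had both WL mice above both LW mice and 2 had both below, with medians of 0.10 and 0.23. Cyp51, a demethylase of cholesterol synthesis, stood at 0.36 and 1.37 in WL and at -0.01 and -0.02 in LW. Of 22 interferon response genes 3 had both WL mice above, a smaller share than among all genes, and none both below. The interferon list medians were 0.07 and 0.45 in the WL mice. Mx1 was among the 3, at -1.14 and -0.17 in WL and -1.60 and -1.45 in LW. The interferon median of 0.23 was 0.05 without LW replicate 1 and 0.48 without LW replicate 2. Of 21 endothelial genes 5 lay on either side, with medians of -0.06 and -0.06. Pecam1 stood at 0.71 and 1.17 in WL and at 0.71 and 0.77 in LW.

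**Figure D5:**
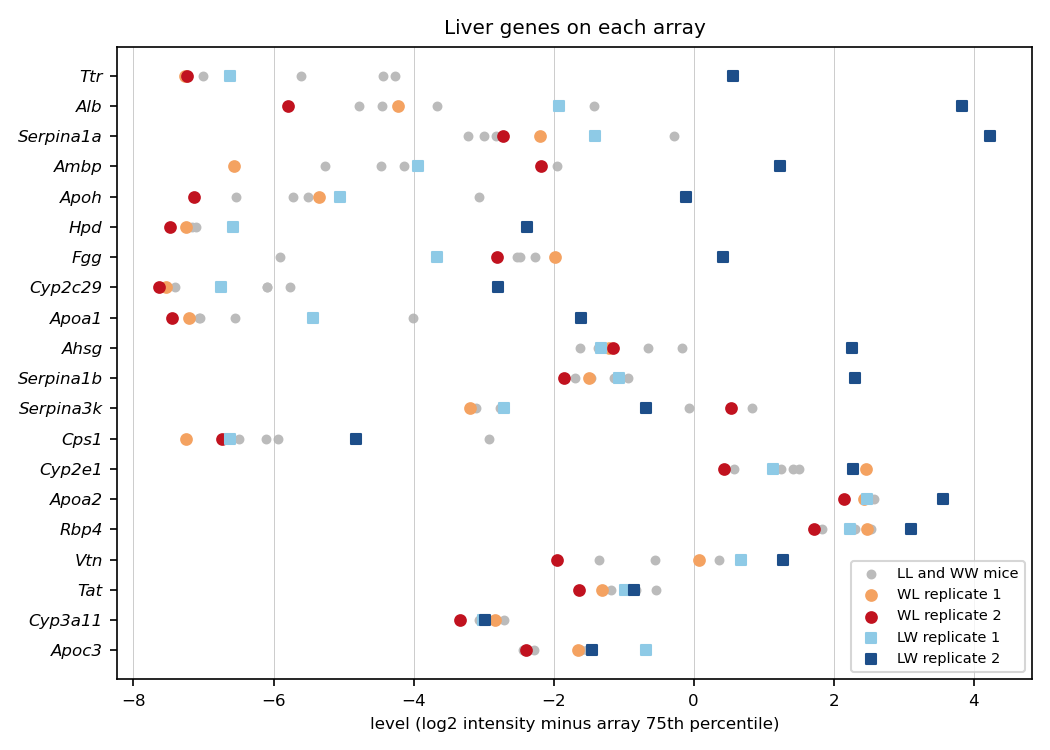
Level (log2 intensity minus the array's 75th percentile) of 20 liver genes on each array, sorted by the difference between the LW mice. LW replicate 2 stands to the right of the other arrays in most of the upper genes, with Alb at 3.84 against -1.92 on LW replicate 1, while the WL mice lie with the remaining arrays.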

How the data were processed

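Lungs of 8 chimeric mice were read on 8 one-colour arrays. The deposited array files hold intensity values that the authors extracted with Agilent Feature Extraction 11.5.1.1 after background subtraction, per the file headers. The deposited series table holds log2 values, with column medians of -2.94 to -2.70. They were set against the log2 processed signal minus the array's 75th percentile. For the probes that passed the filter below, 99.96% of values lay within 0.01 of it. Over all probes the largest absolute difference was 0.81. Non-uniform spots were left out, spots of a probe averaged (56605 probes), and probes well above background on all 4 WL and LW arrays kept (35015). The brightest probe stood for each gene, which left 23103 genes, 16212 under current RefSeq symbols. limma 3.58.1 in R 4.3.3 was fitted to 4 group means with 4 residual degrees of freedom, with Benjamini-Hochberg adjustment over all genes, and was tested on simulated data. The labels do not say that mice were handled apart, so p-values measure the spread between these samples. The 26 gene lists, members and rules were chosen with earlier results of these data known. Genes are named for the widest gaps (8 each way), the largest WL replicate differences (6 each way), the smallest p in each list (up to 4), or from a fixed set. Predicted genes, clones, accessions and receptor segments were left out of the rankings of gaps and replicate differences. Other genes are named as exceptions after their values were seen. Probe positions are those of the array's mm9 annotation.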

Additional observations from a re-analysis of the deposited data

How the results depend on the processing

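The count of called genes was 0 under normexp, quantile scaling, another percentile, probes above background on all 8 arrays, the mean of probes, the deposited table, the 4 arrays alone, a variance per group and a trended variance. It was 12 of 25007 genes (1 higher, 11 lower) when probes had to be above background in WL or LW only, with Cdc20 at an adjusted p of 0.0379 by limma, and 5 of 37072, all lower, with no filter. Leaving out 1 mouse gave 0 to 9926 called genes, the latter without WL replicate 1 (4968 higher, 4958 lower). The replicate block gave 0 called genes (smallest adjusted p 0.438). Across genes, the deviations of WL and LW replicate 1 from their group means had r = -0.022. That value covers these groups alone, so it cannot decide whether the replicate numbers pair the mice. Genes whose groups did not overlap numbered 10475, and 18924 with no filter (6030 higher, 12894 lower). Of 26 list medians 21 to 26 kept their sign without 1 mouse, and 16 did without WL replicate 2 and LW replicate 2, a setting added after the data were seen. Of 150 named genes 141 to 150 kept their sign without 1 mouse, and 126 did without WL replicate 2 and LW replicate 2. The differences of Arg1 and Cxcl1 were 5.33 and 5.74 without WL replicate 1, and that of Creg2 was 3.93 without WL replicate 2 and LW replicate 2. Arg1 turned to -1.23 without WL replicate 2 and to -0.61 without WL replicate 2 and LW replicate 2, Cxcl1 to -0.77 in the latter, Creg2 to -0.33 without WL replicate 1, and Dph3 to -0.28 with the mean of its probes. The cause of these turns was not tested. With 1 array per mouse and 2 mice per group, the number of arrays limits the precision.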

Other observations

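Detection at the array's background gave a further contrast. Of 37074 gene names on the array, 872 were well above background on both WL arrays and on neither LW array, and 44 the other way. The WL arrays had 71.1 and 71.3% of their spots above background and the LW arrays 66.3 and 66.9%, and the part of this in the count was not tested. The lists hold 543 entries, some of them repeated. The listed genes seen on both WL arrays and neither LW array are all named here. They were the neutrophil chemoattractants Cxcl2 and Cxcl3, the cytokine Il1a, the chemokine Ccl22 and the mitotic kinase Ttk. The others were the chemokine receptor Xcr1 of cross-presenting dendritic cells, the granule protease gene Prtn3 and the endothelial adhesion molecule Sele. No listed gene was seen on both LW arrays and neither WL array. With 44 such names among 37074, this absence is not read as a result about the listed genes. The share of listed genes seen on the WL arrays alone was not set against that of all names. The names above are therefore not read as a result about the listed genes either.

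Heart muscle genes, which the muscle sleeve of pulmonary veins brings into lung samples, had medians of -0.12 and -0.60 in the WL mice. Both WL mice lay above both LW mice in 1 of 12 and below both in 2, against 20.4% and 25.0% of all genes. The atrial myosin gene Myh6 stood at 5.65 and 5.07 in WL and at 5.96 and 6.26 in LW. Red cell genes had medians of 0.18 and -0.84, and the LW mice differed by -0.73. Klf1, an erythroid transcription factor, was the only one of 8 tested members whose groups did not overlap, at -3.23 and -3.35 in WL and -3.02 and -2.75 in LW.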
